A study of Homo sapiens with 6 samples.

Results

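The genes described here run the first decision of the cell cycle, the passage from G1 into S phase, in MM.1S, an established cell line of human multiple myeloma, a cancer of plasma cells. They are CCND1, CCND3, CCNE1, CCNE2, CDK2, CDK4, CDK6, CDKN1B, CDKN2C and RB1, 10 of the 56637 gene symbols in the count tables. They were chosen by name, with earlier results of these data known. A lentivirus had brought in a small hairpin RNA that targets either KDM6B, a histone H3 lysine 27 demethylase, or luciferase as the control, and puromycin selection followed. The groups, called shKDM6B and shLuc below, hold 3 libraries each, and values are given in the order of replicates 1, 2 and 3. The labels name no further hairpin to KDM6B, so loss of KDM6B and off-target action of the hairpin cannot be told apart.

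In G1, D-type cyclins bind the kinases CDK4 and CDK6, and the resulting complexes phosphorylate the retinoblastoma protein RB1, which holds E2F transcription factors in check. E-type cyclins then activate CDK2, which completes the phosphorylation of RB1 and starts DNA replication. The inhibitor p27 (gene CDKN1B) blocks CDK2 complexes, and p18 (CDKN2C) blocks CDK4 and CDK6. In multiple myeloma nearly every tumour expresses a D-type cyclin at a raised level, and which one depends on the genetic subtype.

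Library totals ran from 7338393 to 8996159 counts in shLuc and from 7952156 to 9848351 in shKDM6B. The target KDM6B lay between 48.0 and 56.9 CPM in shLuc libraries and between 30.3 and 35.0 CPM in shKDM6B libraries. It stood at 53.6 ± 4.9 CPM (the count relative to a TMM-scaled library total; SD, n = 3) in shLuc and 32.5 ± 2.4 CPM in shKDM6B, a log2 fold change of -0.71 (SE 0.073). All 8 plasma cell genes looked at, among them SDC1, IRF4 and MAF, had counts in every library; of these CD38 (log2 fold change -0.45, adjusted p = 3.88e-07) and TNFRSF17 (-0.37, adjusted p = 2.20e-06) were lower in shKDM6B, PRDM1 (0.15, adjusted p = 0.0173) was higher, and the other 5 did not pass. Epithelial transcripts were highest in shLuc replicate 1 and in replicates 1 and 2 of shKDM6B, as described with CCND1 below. In no library did T cell markers sum to more than 9.91 CPM, monocyte markers to more than 3.10 CPM or erythroid markers, nearly all HBB, to more than 23.5 CPM, and CD3G, FCGR3A and HBA2 had no counts. HBB (log2 fold change -0.81, adjusted p = 5.75e-06) and CD3E, the T cell marker with enough counts to be tested (-0.59, adjusted p = 0.00727), were lower in shKDM6B; their part in the results below was not tested. The labels do not say that replicates came from separate cultures, so the spread behind each p-value is that among libraries and could be technical. In bulk RNA, a change in the share of cells in one phase of the cycle and a change in RNA per cell cannot be told apart.

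CDK6, CCNE1 and CCND1 were higher in shKDM6B, and CCNE2 and RB1 were lower. CCND3, CDK2, CDK4 and CDKN1B did not pass the test, and CDKN2C had no counts in any library. Thus 5 of 9 tested genes passed, at an adjusted p under 0.05 in edgeR's quasi-likelihood test with Benjamini-Hochberg adjustment over all 13839 genes tested; every adjusted p below is from this test unless another is named. CCND1 is counted here although it had enough counts to be tested only through its shKDM6B libraries. Over all tested genes 39.1% passed, 20.1% as higher and 18.9% as lower, so the count for these genes is not far from the background. The CPM of the groups did not overlap for the 5 genes that passed and overlapped for the other 4, while 48.4% of all tested genes showed no overlap. Their median log2 fold change was 0.030, beside -0.0053 for all tested genes. Of all calls 51.5% were higher, or 63.7% when only genes sparse in counts per base set the scaling; the calls of these 9 genes were 3 higher and 2 lower either way.

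**Figure D1:**
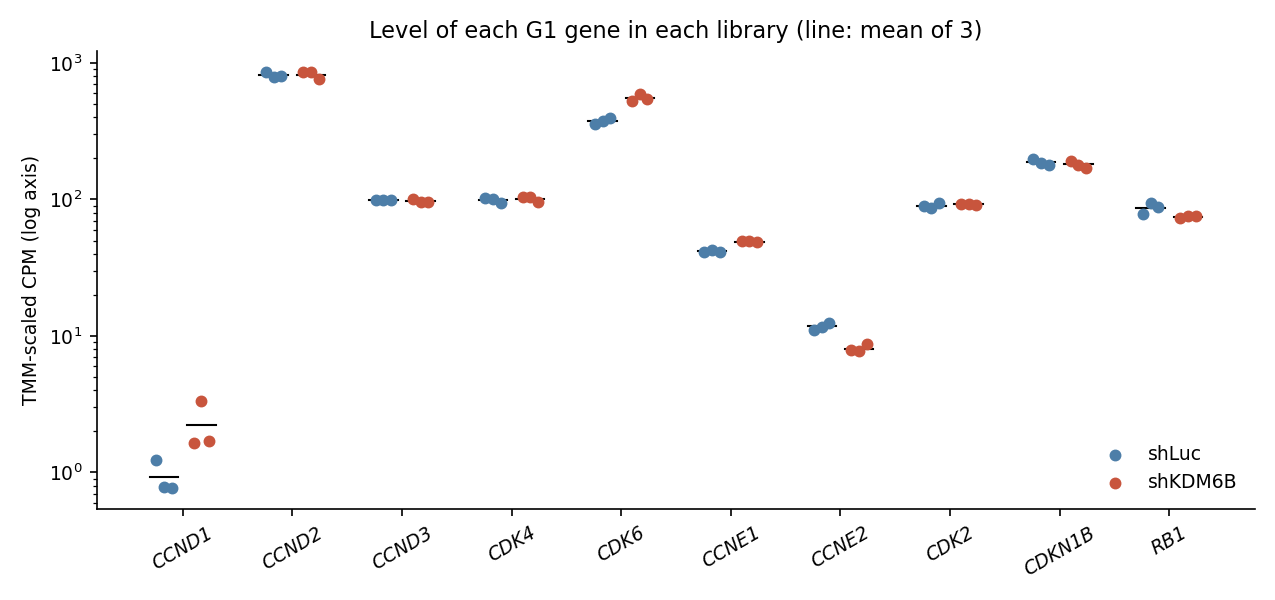
TMM-scaled CPM on a log axis for CCND2 and the 9 of the 10 genes that had counts, with 1 point per library (blue shLuc, red shKDM6B) and a line at each mean of 3. The groups lie apart for CCND1, CDK6, CCNE1, CCNE2 and RB1 and overlap for the rest.

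The sequences around the starts of CDK6 and CCNE1 are shown because these are the genes that rose with the most counts behind them. Each window runs from 250 bases before to 50 bases after a start in RefSeq (build GRCh38.p14), and 7 of the 10 genes had at least 1 window there, 12 in all; CCND1, CCNE2 and CDK2 had none. The capitals mark matches on either strand to GGGGCGGGG, a GC box that Sp1-type factors can bind. The first is CCNE1 (chr19:29811741-29812040, plus strand, 81.0% G or C), and the other two are the CDK6 starts (chr7:92836524-92836823 and chr7:92833910-92834209, both minus strand, 78.0% and 68.7% G or C).
CCNE1: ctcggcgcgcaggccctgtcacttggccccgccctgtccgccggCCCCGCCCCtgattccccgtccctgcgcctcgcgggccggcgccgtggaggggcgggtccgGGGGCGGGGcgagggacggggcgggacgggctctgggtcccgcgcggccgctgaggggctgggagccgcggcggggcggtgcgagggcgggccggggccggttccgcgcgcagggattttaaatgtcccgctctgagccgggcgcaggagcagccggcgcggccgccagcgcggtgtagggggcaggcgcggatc
CDK6, first start: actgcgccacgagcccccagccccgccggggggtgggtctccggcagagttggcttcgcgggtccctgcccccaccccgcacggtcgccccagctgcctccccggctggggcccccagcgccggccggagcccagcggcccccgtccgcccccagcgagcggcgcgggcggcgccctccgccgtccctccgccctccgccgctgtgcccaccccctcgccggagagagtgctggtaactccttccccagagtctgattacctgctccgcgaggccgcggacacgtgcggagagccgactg
CDK6, second start: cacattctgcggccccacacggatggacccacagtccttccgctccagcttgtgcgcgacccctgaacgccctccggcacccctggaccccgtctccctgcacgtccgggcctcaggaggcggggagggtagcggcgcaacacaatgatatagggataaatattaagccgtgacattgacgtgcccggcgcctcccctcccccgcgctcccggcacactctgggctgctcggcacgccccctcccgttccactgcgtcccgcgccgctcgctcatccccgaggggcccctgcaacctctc

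The CCNE1 window held 2 matches to the GC box, from -206 to -198 and from -145 to -137 relative to the start, and neither CDK6 window held one. Over all 12 windows 3 held a match, in 2 genes, CCNE1 and CCND3; the latter did not pass the test and held 4 matches in its 2 windows with any. Of 35116 windows of the same length over all genes, 15.7% held a match. The E2F sites TTTCCCGC, TTTGGCGC and TTTCGCGC were searched on both strands and were found in 0 of the 12 windows, beside 2.74% of all windows. TGACTCA (AP-1) and TGACGTCA (cyclic AMP response element) were likewise in none of the 12, beside 4.95% and 1.85% of all windows. Only exact matches were counted, and CCND1, CCNE2 and CDK2 were not searched. The RB1 window (chr13:48476200-48476499, 38.3% G or C), like the others, need not cover the start used in these cells. Absence from these windows therefore does not mean that the genes lack such sites.

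CDK6, the D-cyclin-dependent kinase that is prominent in blood cells, rose in all shKDM6B libraries. It had 2601, 3336 and 3608 counts in shLuc and 4118, 4944 and 5386 in shKDM6B. Every shKDM6B library lay above every shLuc library, before and after scaling. The level went from 376 ± 20 to 551 ± 34 CPM (SD, n = 3 each), a 1.46-fold rise with a 95% interval of 1.36 to 1.58 (log2 fold change 0.55, SE 0.053, adjusted p = 2.74e-08). A larger change in either direction was seen in 12.1% of tested genes. In shKDM6B replicate 3, which had almost no epithelial transcripts, CDK6 stood at 542 CPM, and in the shLuc libraries with the fewest of them, replicates 2 and 3, at 376 and 396 CPM. Whether RNA from other cells bears on the CDK6 level was not tested.

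CDK4, the sister kinase with the same D-type partners, did not pass. Its counts were 749, 890 and 863 in shLuc and 821, 871 and 954 in shKDM6B, and the scaled groups overlapped. The log2 fold change was 0.030 (SE 0.048, adjusted p = 0.663), with a 95% interval from -0.070 to 0.13, so a rise as large as that of CDK6 lies outside it. In the annotation of GENCODE 29, exons of CDK4 share 1369 bases with TSPAN31 on the opposite strand, which had 314, 412 and 383 counts in shLuc and 299, 311 and 373 in shKDM6B and was called lower (-0.23, adjusted p = 0.00657). The kit named in the labels does not, as far as its name shows, mark strand. How reads from the shared stretch were counted is not given. CDK4 counts may therefore include TSPAN31 reads or lack reads from that stretch.

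The balance between the kinases does not depend on how libraries are scaled. CDK6 made up 77.6%, 78.9% and 80.7% of CDK4 and CDK6 counts in shLuc, and 83.4%, 85.0% and 85.0% in shKDM6B. Exact binomial 95% intervals, which cover counting error only, were 79.5% to 81.8% in the highest shLuc library and 82.3% to 84.4% in the lowest shKDM6B library. The mean share moved by 5.36 percentage points (exact two-sided permutation p = 0.10, n = 3 each, 0.15 after Benjamini-Hochberg adjustment over 3 such values). With 3 libraries against 3, 0.10 is the smallest p this test can give. A share of counts favours the longer transcript. Per kilobase of exon, CDK4 and CDK6 were close in shLuc, at 31.3 ± 1.3 and 30.7 ± 1.6 CPM per kb (SD, n = 3), and in shKDM6B they stood at 32.0 ± 1.5 and 44.96 ± 2.79 CPM per kb. These values divide by the whole exon length. CDK4 shares 1369 of its 3168 bases with TSPAN31, so its level per kilobase could be higher or lower than shown.

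**Figure D2:**
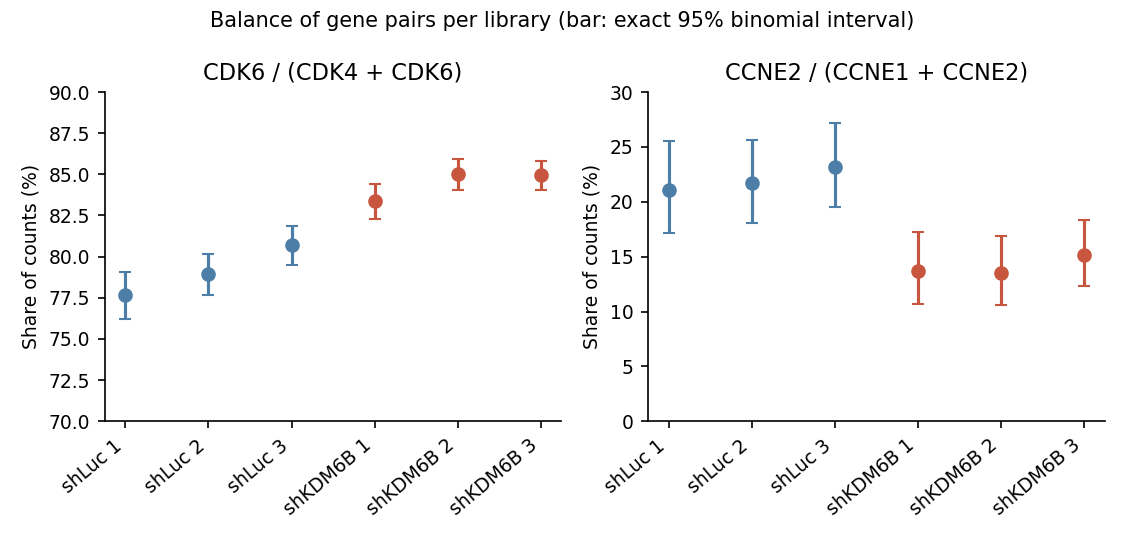
Share of counts in percent for CDK6 among CDK4 and CDK6 (left, axis from 70) and for CCNE2 among CCNE1 and CCNE2 (right), with 1 point per library and bars for the exact 95% binomial interval. The CDK6 share is at least 83.4% in every shKDM6B library and at most 80.7% in shLuc; the CCNE2 share is at most 15.1% in shKDM6B and at least 21.1% in shLuc.

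The E-type cyclins, both of which activate CDK2, moved in opposite directions. CCNE1, the more abundant of the pair, had 303, 376 and 374 counts in shLuc and 390, 416 and 482 in shKDM6B. The level went from 41.6 ± 0.6 to 49.2 ± 0.6 CPM (SD, n = 3 each), with no overlap between groups. That is a rise of 18.0%, or 0.24 on the log2 scale (SE 0.057, adjusted p = 0.00193).

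CCNE2 had 81, 104 and 113 counts in shLuc and 62, 65 and 86 in shKDM6B. Its level went from 11.7 ± 0.7 to 8.09 ± 0.49 CPM (SD, n = 3 each), and here too the groups did not overlap. The log2 fold change was -0.54 (SE 0.13, adjusted p = 0.00169), with a 95% interval from -0.80 to -0.27. Exons of CCNE2 share 1629 bases with INTS8, an Integrator subunit gene on the opposite strand, whose counts were 308, 407 and 384 in shLuc and 347, 369 and 509 in shKDM6B. INTS8 itself did not pass (0.10, adjusted p = 0.249).

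CCNE2 made up 21.1%, 21.7% and 23.2% of cyclin E counts in shLuc, and 13.7%, 13.5% and 15.1% in shKDM6B. The mean share fell by 7.86 percentage points (exact two-sided permutation p = 0.10, n = 3 each, the smallest possible; 0.15 adjusted over the 3 values). Neither cyclin's call held without the 3 libraries with the most epithelial transcripts. That comparison sets 2 shLuc libraries against 1 shKDM6B library and borrows its spread from the former. CCNE1 then had a log2 fold change of 0.22 and CCNE2 of -0.48. By the DESeq2 Wald test the adjusted p of CCNE1 was 0.0539.

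CDK2, the kinase that both E-type cyclins serve, did not pass. Its counts were 650, 765 and 858 in shLuc and 731, 778 and 907 in shKDM6B, at 89.8 ± 4.1 and 92.2 ± 0.8 CPM (SD, n = 3 each). The groups overlapped, and the change of 0.037 on the log2 scale (SE 0.047, adjusted p = 0.568) had a 95% interval from -0.060 to 0.13. Its exons share 89 bases with PMEL on the opposite strand, which had 24 to 68 counts per library.

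Among the D-type cyclins, CCND2 and CCND3 carried nearly all of the RNA, and CCND1 was close to the limit of detection. CCND3 had 722, 875 and 900 counts in shLuc and 797, 810 and 954 in shKDM6B. Its scaled level was 98.8 ± 0.2 and 97.9 ± 2.8 CPM (SD, n = 3 each), a difference of -0.014 on the log2 scale (SE 0.044, adjusted p = 0.828; 95% interval from -0.11 to 0.077). The groups overlapped. CCND2, which is not among the 10 genes, had 6315 to 7244 counts in shLuc and 6725 to 7554 in shKDM6B, and its change was 0.011 on the log2 scale (SE 0.056, adjusted p = 0.899). Within each group the library with the fewest total counts had the highest CCND2 level, 865 CPM in shLuc replicate 1 and 853.4 CPM in shKDM6B replicate 1. In shKDM6B replicate 2 the level was nearly equal, at 852.8 CPM.

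Per length of exon, CCND2 made up 86.3% to 87.5% of D-type cyclin RNA in the 6 libraries, CCND3 12.2% to 13.4% and CCND1 0.124% to 0.506%. The summed CPM of the 3 genes was 916 ± 43 in shLuc and 922 ± 56 in shKDM6B (SD, n = 3 each; exact two-sided permutation p = 1, also after adjustment over the 3 values). The difference of 6.75 CPM is smaller than the spread within either group.

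CCND1, the cyclin D1 gene, had 9, 7 and 7 counts in shLuc and 13, 28 and 17 in shKDM6B. All shKDM6B libraries lay above all shLuc libraries, but the exact Poisson 95% interval of shKDM6B replicate 1 (6.92 to 22.2 counts) and that of shLuc replicate 1 (4.12 to 17.1 counts) overlapped. The level went from 0.93 ± 0.26 to 2.23 ± 0.96 CPM (SD, n = 3 each), a rise of 1.27 on the log2 scale (SE 0.36, adjusted p = 0.00713) and a 95% interval from 0.52 to 2.01. Replicates 2 and 3 of shLuc were below the filter on low counts and the gene was tested through the group where it was high, so its call is given as a description; with no filter the log2 fold change was again 1.27 (SE 0.34, adjusted p = 0.00156). Within shKDM6B, replicate 2 stood at 3.34 CPM, and replicates 1 and 3 at 1.65 and 1.71 CPM.

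The library with the most CCND1 also had the most epithelial RNA. Summed over 10 epithelial markers, the level was 12.6, 3.15 and 3.30 CPM in shLuc, and 34.8, 46.0 and 2.01 CPM in shKDM6B. All 10 had counts in at least 1 library, 4 had enough to be tested, and 3 of these (KRT5, KRT14 and KRT19) were called higher. For these 3 the groups overlapped, and only shLuc replicate 1 and shKDM6B replicates 1 and 2 took them past the filter. Their calls are therefore given as a description. KRT14, for example, had 17, 2 and 2 counts in shLuc and 76, 88 and 3 in shKDM6B. EPCAM, the other tested marker, had a log2 fold change of -0.83 (adjusted p = 0.0680) with every shKDM6B library below every shLuc library. KRT5, KRT17, KRT19, CDH1 and S100A2 were at 0 in shKDM6B replicate 3. Fibroblast markers (COL1A1, COL1A2, COL3A1 and DCN) summed to 0.22 to 0.96 CPM in shLuc and to 1.90, 3.45 and 0.40 CPM in shKDM6B. Without shKDM6B replicate 2 the log2 fold change of CCND1 was 0.87 (adjusted p = 0.0853). Without shLuc replicate 1 and shKDM6B replicates 1 and 2 it was 1.12 (adjusted p = 0.148), from 17 counts in the remaining shKDM6B library against 7 in each remaining shLuc library. The DESeq2 Wald test on all libraries gave an adjusted p of 0.0752.

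CCND1 also shares 497 bases of exon with LTO1, listed as ORAOV1 in the tables, on the opposite strand. ORAOV1 had 344 to 453 counts in shLuc and 377 to 503 in shKDM6B (log2 fold change -0.033, adjusted p = 0.705). Without strand, reads of ORAOV1 from the shared stretch cannot be told apart from CCND1 reads, and whether such reads were counted is not given.

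**Figure D3:**
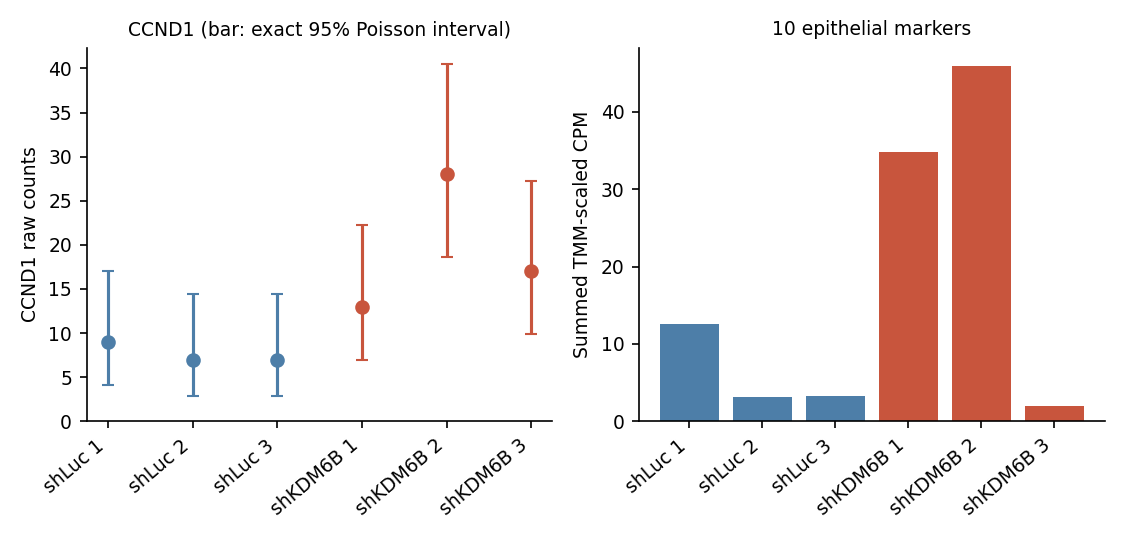
Left, raw counts of CCND1 in each library with exact 95% Poisson intervals; right, the summed TMM-scaled CPM of 10 epithelial markers in the same libraries. CCND1 is highest in shKDM6B replicate 2 (28 counts), which also has the highest epithelial sum (46.0 CPM), while shKDM6B replicate 3 has 17 counts of CCND1 and an epithelial sum of 2.01 CPM.

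RB1, the pocket protein that restrains E2F, was modestly lower. Its counts were 572, 831 and 800 in shLuc and 578, 637 and 746 in shKDM6B. After scaling, shLuc stood at 78.3, 93.6 and 87.9 CPM and shKDM6B at 73.3, 75.9 and 75.1 CPM, so the groups did not overlap but shLuc replicate 1 lay close to the shKDM6B libraries. The fall was 14.0% by the fit (log2 fold change -0.22, SE 0.056, adjusted p = 0.00340), with a 95% interval from -0.33 to -0.10. It passed in each of the 15 other settings tried, with adjusted p values from 0.000112 to 0.0462.

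CDKN1B, which encodes p27, was the most abundant of the 10 genes per length and did not pass. Its counts were 1445, 1639 and 1636 in shLuc and 1503, 1509 and 1695 in shKDM6B, at 187 ± 9 and 180 ± 10 CPM (SD, n = 3 each). The groups overlapped (log2 fold change -0.055, SE 0.048, adjusted p = 0.396; 95% interval from -0.16 to 0.045). Its highest level in each group was in the library with the fewest total counts, 198 CPM in shLuc replicate 1 and 191 CPM in shKDM6B replicate 1.

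CDKN2C, which encodes the CDK4 and CDK6 inhibitor p18, had 0 counts in all 6 libraries. Library totals ran from 7338393 to 9848351 counts. With 3 counts as upper limit, 0 counts allow up to 0.409 CPM in the shallowest library and 0.305 CPM in the deepest. Over all 51465117 counts that limit is 0.0583 CPM. The upper ends of exact Poisson 95% intervals, as given for CCND1, are higher, at 0.503, 0.375 and 0.0717 CPM. All these limits cover counting error only. No comparison between groups can be made for it. Its nearest protein-coding neighbours on chromosome 1 in RefSeq's order were FAF1, a ubiquitin-binding protein gene, on one side and C1orf185 on the other. FAF1 had counts in every library, 180 over the 6, and C1orf185 had 0. Beyond C1orf185, RNF11 had 5121 counts in all and TTC39A 26, and EPS15, OSBPL9 and NRDC (listed as NRD1) had 7705, 9206 and 11313. On the FAF1 side, DMRTA2, ELAVL4, BEND5 and AGBL4 had 1, 0, 7 and 0 counts in all and SPATA6 138. Why CDKN2C and some of these genes had few or no counts was not tested.

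In order of shLuc level per kilobase of exon, the 10 genes ran from CDKN1B (66.7 ± 3.3 CPM per kb) through CDK4 and CDK6 to CDK2 (23.1 ± 1.1), CCND3 (17.02 ± 0.03), CCNE1 (16.3 ± 0.3) and RB1 (13.4 ± 1.2; SD, n = 3 each). CCNE2 (2.67 ± 0.15), CCND1 (0.19 ± 0.05) and CDKN2C (0) followed. Over the whole exon length, CDK4 and CDK6 did not differ beyond their spread in shLuc. In shKDM6B, CDK6 stood above CDK4, and CCNE1 at 19.3 ± 0.2 CPM per kb stood above CCND3 at 16.9 ± 0.5. Exon lengths are those of GENCODE 29, which may not be the annotation the authors counted on, so small gaps between genes are uncertain. How reads from exons shared between genes were counted is not known either. CDK4 shares 1369 of its 3168 bases and CDK6 81 of its 12260, so the order of these kinases is uncertain in both groups.

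**Figure D4:**
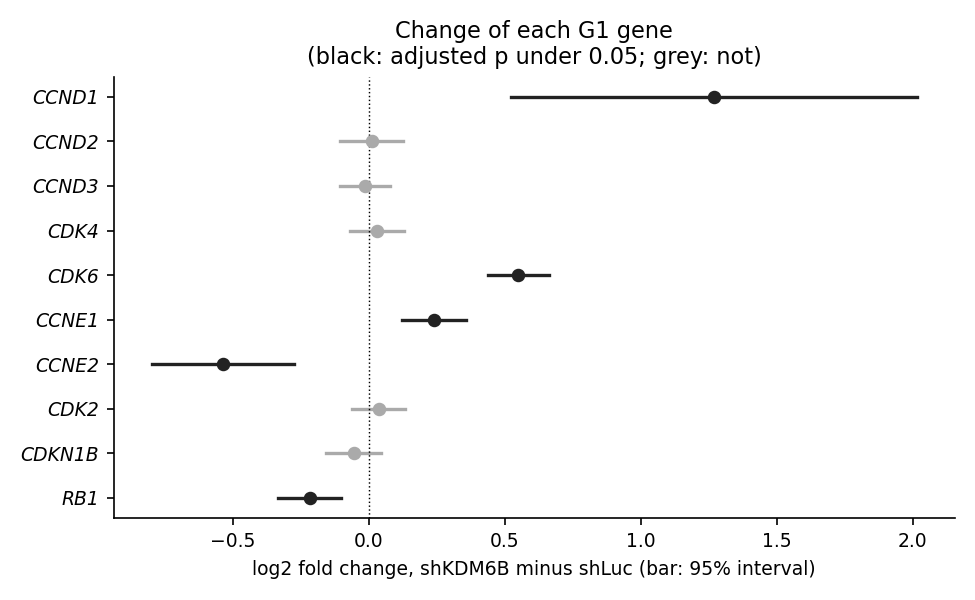
Log2 fold change of shKDM6B minus shLuc with its 95% interval for CCND2 and the 9 tested genes, black where the adjusted p was under 0.05. CCND1 (1.27) has the widest interval and CDK6 (0.55) a narrow one, while CCND2, CCND3, CDK4, CDK2 and CDKN1B lie close to 0.

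The other genes of the G1/S pathway were taken from lists of 66 genes, also chosen with earlier results known, and 64 of them had enough counts to be tested. Of these 9 passed as higher and 7 as lower, and 48 missed the threshold; 25% were called, beside 39.1% of all tested genes, with a median log2 fold change of -0.041 beside -0.0053. The number lower was 4 without shLuc replicate 2 or without shKDM6B replicate 2, and 2 when sparse genes set the scaling (with 10 higher). By DESeq2 it was 3, and with the replicate number as a block it was 13. The inhibitors of the INK4 and CIP/KIP families other than p27 and p18 numbered 5, and 1 passed. CDKN2B, which encodes the CDK4 and CDK6 inhibitor p15, had 118, 131 and 147 counts in shLuc and 48, 70 and 65 in shKDM6B. The level was 15.7 ± 0.8 CPM in shLuc and 6.99 ± 1.19 CPM in shKDM6B (SD, n = 3 each), without overlap. The log2 fold change was -1.16 (SE 0.13) with an adjusted p of 2.56e-07. Its neighbour CDKN2A, which encodes p16 and ARF, had a log2 fold change of -0.077 (adjusted p = 0.236), and CDKN1A, which encodes p21, of -0.080 (adjusted p = 0.297).

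Of 10 E2F and DP factors, 2 were higher and none lower, so 20% were called, beside 39.1% of all tested genes. E2F7, an atypical E2F that represses E2F target genes, rose from 71.3 ± 2.3 to 117 ± 2 CPM (SD, n = 3 each), with counts of 502, 649 and 655 in shLuc and 904, 994 and 1172 in shKDM6B (log2 fold change 0.71, SE 0.045, adjusted p = 5.60e-11). E2F1, an activating E2F, was higher by a small amount (0.13, adjusted p = 0.0205), and the call was lost without shLuc replicate 1 or 2 or without shKDM6B replicate 1 or 2, with adjusted p values from 0.0623 to 0.105. The 15 E2F target genes, mostly replication factors, had a median log2 fold change of -0.087, and the highest was 0.086 (ORC1). Only MCM5, a subunit of the replicative helicase, passed (-0.12, adjusted p = 0.0364), and it missed the threshold when any 1 library was left out (adjusted p from 0.0510 to 0.131). The share called among these targets was 6.67%.

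Among 14 genes for turnover of G1 cyclins and p27, 4 were higher and 1 lower. That is 35.7% called, near the 39.1% of all tested genes. FBXO31, a ubiquitin ligase subunit reported to target cyclin D1, rose by 34.4% (log2 fold change 0.43, SE 0.056, adjusted p = 2.66e-06), from 50.1 ± 2.8 to 67.5 ± 2.9 CPM (SD, n = 3 each). The ligase scaffold CUL4B was also higher (0.21, adjusted p = 0.000513). SKP2, the ligase subunit that recognises p27, fell by 0.29 on the log2 scale (SE 0.043, adjusted p = 1.34e-05), with 118 ± 3 CPM in shLuc and 96.7 ± 1.6 CPM in shKDM6B (SD, n = 3 each).

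Of 6 genes for phosphatases, kinases and a chaperone of CDKs, 2 were higher and 2 lower. In this short list 66.7% were called, beside 39.1% of all tested genes. CDC37, a chaperone of CDK4 and CDK6, was higher (0.21, adjusted p = 0.000892), as was the CDK2-activating phosphatase CDC25A (0.20, adjusted p = 0.00131). PKMYT1, which phosphorylates CDK1 to hold it inactive, was lower (-0.21, adjusted p = 0.000339), though not when genes sparse in counts per base set the scaling (adjusted p = 0.0909). CDC25A missed the threshold without shLuc replicate 1 and shKDM6B replicates 1 and 2 (adjusted p = 0.0701).

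Of 8 pocket protein and DREAM complex genes 1 was higher, LIN54 (0.24, adjusted p = 0.00354), and 1 lower, LIN52 (-0.24, adjusted p = 0.0262). Both encode subunits of the core that binds cell cycle gene promoters. The share called was 25%, beside 39.1% of all tested genes. LIN52 missed the threshold without shLuc replicate 1 or 2 or shKDM6B replicate 1 or 2 (adjusted p from 0.0589 to 0.104). Of 6 tested other cyclins and CDKs 16.7% were called. CDK1, the mitotic kinase, was lower (-0.14, adjusted p = 0.0109, or 0.0552 without shKDM6B replicate 3) and the other 5 did not pass. By the DESeq2 Wald test CDK1, E2F1, LIN52 and MCM5 had log2 fold changes of -0.14, 0.13, -0.24 and -0.12, with adjusted p values of 0.115, 0.0786, 0.194 and 0.0605. Without the 3 libraries with the most epithelial transcripts, CDK1 had a log2 fold change of -0.16, E2F1 of 0.062 and LIN52 of -0.11, none past the threshold. When sparse genes set the scaling, CDK1, LIN52 and MCM5 had log2 fold changes of -0.090, -0.18 and -0.063, with adjusted p values of 0.325, 0.0849 and 0.617.

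**Figure D5:**
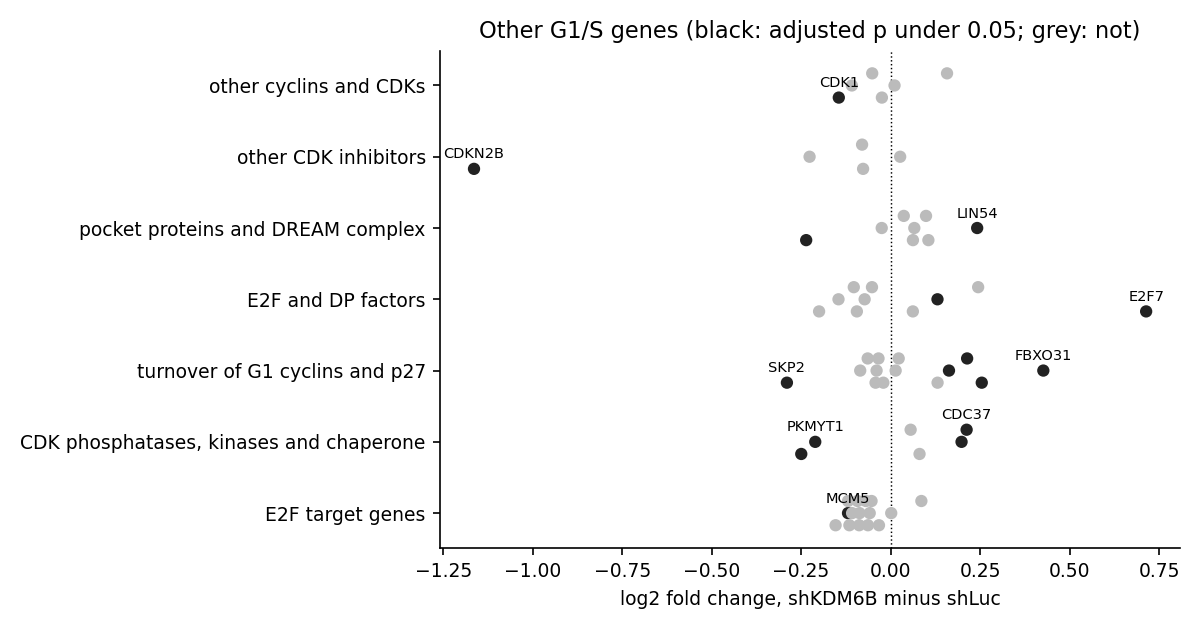
Log2 fold change of shKDM6B minus shLuc for the 64 tested other G1/S genes, 1 point per gene, grouped by role and black where the adjusted p was under 0.05. CDKN2B (-1.16) and E2F7 (0.71) lie farthest from 0, and the E2F target genes have a median of -0.087.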

How the data were processed

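Per the labels' protocols, total RNA from puromycin-selected MM.1S cells was made into libraries with an NEBNext Ultra kit. The submitters' processing notes name the tools STAR, featureCounts and DESeq and the build GRCh37 (hg19). The sources used here give no version, annotation or strand setting. The authors deposited raw counts per gene symbol for each library, and 1 line per library without a value was left out. The authors' normalized table was not used.

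The raw counts were fitted with edgeR 4.0.16 in R 4.3.3 (filterByExpr, TMM, quasi-likelihood test with group as the single term, all 6 libraries). A gene passed at an adjusted p under 0.05 over 13839 genes. The SE is implied by the quasi-likelihood statistic. The fit was tested on simulated data, with changes set only in genes with many counts. That check does not cover a gene with as few counts as CCND1 or changes as small as those of RB1 and CCNE1. Genes and lists were chosen with earlier results of these data known. Named were all 10 genes, KDM6B, CCND2 and, per list, up to 3 genes past the threshold with the smallest p and a mean of at least 5 CPM; all others were chosen after their values were seen. Exon lengths and overlaps are from GENCODE 29 (GRCh38), promoters from RefSeq, and intervals from scipy 1.17.1. Alternatives were DESeq2 1.42.0, voom in limma 3.58.1, 3 other scalings, 2 other filters, the replicate number as a block and leaving out libraries.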

Additional observations from a re-analysis of the deposited data

How the results depend on the processing

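CDK6 stayed higher and RB1 lower, past the threshold, in all 15 other settings, and CDK2, CDK4, CCND3 and CDKN1B passed in none. Leaving out the 3 libraries with keratin counts (shLuc replicate 1 and replicates 1 and 2 of shKDM6B), 1 of the 10 genes was higher and 1 lower, with log2 fold changes of 1.12 (CCND1), 0.22 (CCNE1) and -0.48 (CCNE2), none past the threshold, and CDK4 at -0.021, CCND2 at -0.057 and 11 other G1/S genes lower. This setting has fewer libraries. By the DESeq2 Wald test 1808 genes were higher and 1586 lower in all, 1 of the 10 genes was higher, CCND1 (1.28) and CCNE1 (0.24) missed the threshold, and 3 other G1/S genes were lower. Scaling from genes with under 0.03 counts per base put CCND3 at 0.042 and CDKN1B at 0.00047, with 2 other G1/S genes lower, and upper-quartile scaling put CCND2 at -0.0079; the causes were not tested. Leaving out each library in turn gave 0.87 to 1.49 for CCND1, -0.035 to 0.0025 for CCND3, -0.0075 to 0.072 for CDK4, -0.019 to 0.067 for CCND2 and 4 to 7 other G1/S genes lower.

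Deviations of same-numbered libraries had correlations of 0.243, -0.0783 and 0.205 over 11244 genes, and those of differently numbered libraries ran from -0.28 to 0.0846. The main fit did not pair libraries by number, and whether the numbers mark pairs was not tested. With the replicate number as a block, 3166 genes were higher and 3052 lower, the 10 genes again gave 3 higher and 2 lower, and 13 other G1/S genes were lower in place of 7. Over 225 values of other named genes under the alternatives, 192 kept their direction and side of the threshold, 27 missed it and 6, all of CCND2, changed sign. Depth limits CCND1 and CCNE2 most, and CDKN2C was not detectable.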
